A study of Mus musculus with 4 samples.

Results

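Linked regions of RNA polymerase II that were called in mouse heart, kidney and liver and not in lung are described. They were chosen by joining the called regions of the 4 organ lists wherever these overlapped by at least 1 bp, on chromosomes 1 to 19 and X. A linked region was kept when it held at least 1 region from each of the heart, kidney and liver lists, none from the lung list, and no called region of 10000 bp or more. The rule kept 1639 of 152542 linked regions, which is 1.07% of all. The calls themselves chose these regions, so their presence in heart, kidney and liver and their absence from lung are the selection and not a finding.

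C57BL/6 mice gave 4 groups, namely heart, kidney, liver and lung, and each group was 1 list of called regions. Organs of 2 mice were flash-frozen, crosslinked, sheared by ultrasound in 96-well plates (PIXUL) and precipitated in a plate format (Matrix ChIP) with the 4H8 antibody, raised against the polymerase's C-terminal domain. Libraries were made by Tn5 tagmentation and read as pairs of 50 bases. No allele, treatment or age distinguished the groups in the labels, and pooling of both mice in a list was not given in the sources used here. With 1 list per organ no test between organs was possible. The exact (Clopper-Pearson) 95% intervals given below cover counting error only.

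RNA polymerase II transcribes the protein-coding genes. Its chromatin signal marks promoters where it pauses, gene bodies it is transcribing and stretches past gene ends where it terminates. Heart, kidney and liver are organs with a heavy demand for mitochondrial fuel oxidation, which is served by the respiratory chain, by fatty acid oxidation and by co-activators such as PGC-1alpha, the product of Ppargc1a. Lung is built largely of thin epithelium, endothelium and immune cells.

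Totals were 9880184 tags for heart, 16589890.5 for kidney, 20058183 for liver and 13296938 for lung. Marker genes followed the labels: the median marker gene of cardiomyocytes was covered over 100% of its span in heart, and the same held for proximal tubule markers in kidney and hepatocyte markers in liver. The median lung epithelium marker was covered over 85.0% of its span in lung. The lung list had 101046 regions on these chromosomes, more than heart (81878), kidney (88193) or liver (61948). Its header threshold was 11 tags, or 8.27 tags per 10000000, and a place without a lung region may still have held lung tags below the caller's limit. In whole organs, fewer cells with polymerase at a place and less polymerase per cell cannot be told apart.

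The bases upstream of 7 gene starts that lay in or at the edge of such a linked region are given as examples. Each run is the 250 bases before the annotated start on the gene's own strand, 5′ to 3′, from RefSeq on GRCm38.p6, with matches to the 12 motifs searched in capitals. Fgd4, Erbb4, Kbtbd12 and Peg3 are shown because no lung region lay in the gene or within 1000 bp of it. Ndufa10, Pmpcb and Ndufaf4 encode mitochondrial proteins. Pmpcb was picked after its values were seen, and the other genes came from the naming rule. Printing Ndufa10 and Ndufaf4 went beyond the planned choice of stretches. Among mitochondrial genes not printed, the Ndufs4 stretch held none of the 12 motifs and Polrmt the TATA letters only. Metap1d held a GC box, and Mrps25 held CCAAT and the AP-1 letters.
Fgd4: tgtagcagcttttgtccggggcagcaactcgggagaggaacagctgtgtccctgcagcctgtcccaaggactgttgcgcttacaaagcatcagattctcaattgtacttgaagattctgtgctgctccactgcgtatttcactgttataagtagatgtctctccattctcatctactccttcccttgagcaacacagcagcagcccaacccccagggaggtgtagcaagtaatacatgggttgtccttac
Erbb4: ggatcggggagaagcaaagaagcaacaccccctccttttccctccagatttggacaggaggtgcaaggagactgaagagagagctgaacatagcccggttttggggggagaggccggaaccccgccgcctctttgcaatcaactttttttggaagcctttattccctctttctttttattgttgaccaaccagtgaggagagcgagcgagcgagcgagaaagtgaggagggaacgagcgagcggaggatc
Kbtbd12: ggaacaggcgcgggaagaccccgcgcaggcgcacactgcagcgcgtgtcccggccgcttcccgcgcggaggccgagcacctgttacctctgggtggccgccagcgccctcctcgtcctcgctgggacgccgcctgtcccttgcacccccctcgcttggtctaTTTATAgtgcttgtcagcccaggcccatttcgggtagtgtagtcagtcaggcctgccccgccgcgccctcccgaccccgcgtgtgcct
Peg3: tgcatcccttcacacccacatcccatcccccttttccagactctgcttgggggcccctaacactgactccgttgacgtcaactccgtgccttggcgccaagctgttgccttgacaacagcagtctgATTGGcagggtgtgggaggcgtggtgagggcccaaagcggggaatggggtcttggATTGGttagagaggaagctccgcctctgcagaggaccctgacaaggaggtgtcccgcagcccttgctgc
Ndufa10: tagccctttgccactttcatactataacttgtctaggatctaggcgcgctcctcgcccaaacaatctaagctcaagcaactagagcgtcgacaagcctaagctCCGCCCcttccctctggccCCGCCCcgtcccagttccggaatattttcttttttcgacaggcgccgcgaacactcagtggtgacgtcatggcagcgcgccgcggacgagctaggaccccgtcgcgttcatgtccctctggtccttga
Pmpcb: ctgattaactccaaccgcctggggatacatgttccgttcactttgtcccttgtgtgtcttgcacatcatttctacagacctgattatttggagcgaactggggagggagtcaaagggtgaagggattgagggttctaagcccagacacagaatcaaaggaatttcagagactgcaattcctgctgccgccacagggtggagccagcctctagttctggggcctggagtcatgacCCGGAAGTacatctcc
Ndufaf4: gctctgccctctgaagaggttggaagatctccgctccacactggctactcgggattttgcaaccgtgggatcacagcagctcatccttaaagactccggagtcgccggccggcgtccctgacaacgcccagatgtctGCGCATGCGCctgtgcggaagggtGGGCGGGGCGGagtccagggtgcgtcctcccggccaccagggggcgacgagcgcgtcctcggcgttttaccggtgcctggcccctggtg
The Fgd4 stretch, before 1 of its 3 listed starts and inside the gene span, is chr16:16527412-16527661 on the minus strand. The Erbb4 stretch is chr1:69108060-69108309 on the minus strand. Neither held any of the 12 motifs searched, and their GC contents were 50.0% and 54.0%. The Kbtbd12 stretch, chr6:88627430-88627679 on the minus strand, was 70.4% G and C and held the TATA letters (TATAAA, reverse strand) with the first base at -88 from the start. The Peg3 stretch, chr7:6730420-6730669 on the minus strand, held CCAAT on the reverse strand at -124 and -69. The Ndufa10 stretch, chr1:92473759-92474008 on the minus strand, held the GC box (GGGCGG) on the reverse strand at -147 and -128. The Pmpcb stretch, chr5:21736910-21737159 on the plus strand, held the ETS letters CCGGAAGT at -16. The Ndufaf4 stretch, chr4:24897833-24898082 on the plus strand, held the NRF1 letters at -113 and overlapping GC boxes at -89 and -84. A match is a description of the letters and not evidence of a bound factor.

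The 1639 linked regions were of usual length for linked regions held by exactly 3 organs. Their median length was 2429 bp, from 555 to 18403 bp. The medians were 2403 to 2856 bp in the other 3-organ sets and 736 bp over all linked regions under 10000 bp. Of the 1639, 1128 (68.8%) consisted of exactly 3 called regions, 1 per organ. In 495 (30.2%) no base was called in all 3 organs, because the heart, kidney and liver regions were joined through a chain of pairwise overlaps. The median number of bases called in all 3 organs was 250.

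Heart held a median of 16.7 tags per 10000000 in them, from 6.58 to 383.6. Kidney held a median of 19.6, from 6.03 to 359.8. Liver held a median of 19.2, from 5.48 to 548. The 3 organs were therefore at much the same level, a little above the median of all regions under 10000 bp in the heart list (15.2) and further above it in the kidney (13.3) and liver (13.0) lists. The called length was greater too, with medians of 803, 1148 and 1291 bp per linked region against 701, 758 and 838 bp per region of the lists. Tags followed called length closely across the linked regions (Spearman's rho 0.95, 0.97 and 0.98, n = 1639, where tags and length come from the same calls). Per kb of called length the medians were 20.3 tags in heart, 17.2 in kidney and 15.0 in liver, beside 20.7, 17.1 and 15.0 over all regions under 10000 bp.

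**Figure D1:**
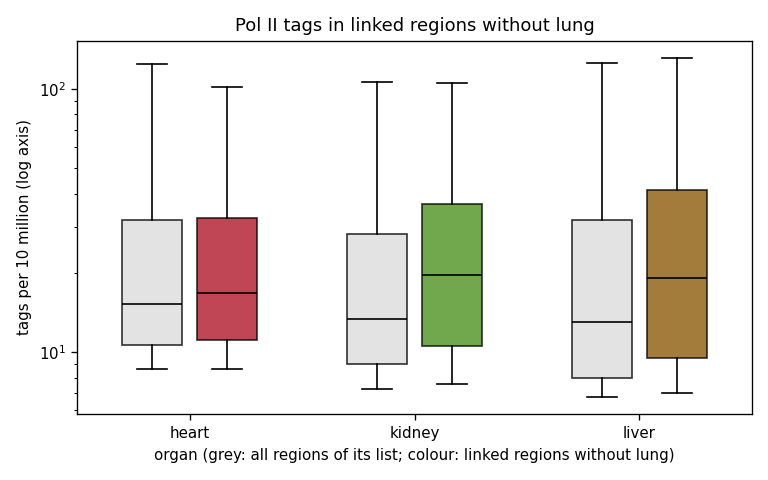
Tags per 10000000 (vertical log axis) in heart, kidney and liver for all regions of an organ's list under 10000 bp (grey) and for the 1639 linked regions without lung (colour); boxes span the quartiles with the median, whiskers the 5th to 95th percentiles. The coloured medians are 16.7, 19.6 and 19.2 and lie above the grey ones in each organ, with wide overlap.

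Within a linked region the 3 organs often differed. The ratio of the highest to the lowest organ had a median of 3.04, 171 linked regions (10.4%) stayed within 1.5-fold, and 417 (25.4%) spanned more than 5-fold. The weakest organ had a median of 10.1 tags per 10000000. In 1169 linked regions (71.3%) all 3 organs reached the lung threshold of 8.27, in 262 (16.0%) all 3 reached 20, and in 44 all 3 reached 50. These tags are sums over called regions, and the lowest lung region held 5.64. Reaching 8.27 therefore does not mean that lung would have been called at that level. The organ with the most tags was heart in 31.7%, kidney in 33.8% and liver in 34.5% of the linked regions. Per kb of called length the order changed to 72.7%, 18.7% and 8.66%, in the order of the medians of all regions of those lists.

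The linked region with the strongest weakest organ was chr14:55457410-55474162, over the long non-coding gene Gm41158 and 4578 bp from Dhrs4, a carbonyl reductase gene. It held 234 tags per 10000000 in heart, 359.8 in kidney and 244 in liver, and the nearest lung region was 3993 bp away. All 3 organs were far above the usual level there.

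The next, chr15:62252710-62266527 over the long non-coding gene Pvt1, held 229.7 in heart, 185 in kidney and 273 in liver. Ehbp1, a gene for an endocytic adaptor, followed with 130.0, 134 and 153 at chr11:22193118-22201220, and a lung region lay only 936 bp away. Ptgr2, a prostaglandin reductase gene, held 113, 120.2 and 169 at chr12:84297062-84305966. In these 3 linked regions the organs lay within 1.5-fold of each other.

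Hcls1, which encodes an actin regulator of blood cells, held 143 tags in heart, 112 in kidney and 136 in liver, and the uncharacterised gene 2700097O09Rik held 125, 94.3 and 104. Asph, the aspartate beta-hydroxylase gene, held 86.0, 107 and 78.5. The long non-coding gene Gm33195 on chromosome 13 held 127, 147 and 80.0, at 55.8 kb from any lung region. All but Gm33195 again stayed within 1.5-fold over the 3 organs.

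Other strong linked regions were remote from lung signal. Fgd4, which encodes an activator of the small GTPase Cdc42, held 91.1 tags in heart, 107 in kidney and 145 in liver in chr16:16523321-16529102. This linked region lay over 1 of the 3 listed starts of Fgd4, inside the gene span, and the nearest lung region was 183 kb away. Slc8a1, the sodium-calcium exchanger gene, held 98.2, 89.8 and 154 in chr17:81375940-81387001, with lung 84.9 kb away. The Slc8a1 linked region sat at the far end of the gene, 357 kb downstream of the nearest listed start, while heart covered 49.9% of the gene, kidney 6.16%, liver 2.80% and lung 1.01%. Mfn1, which encodes a GTPase that fuses mitochondria, held 105, 133 and 84.8 in chr3:32572628-32580737, at its far end and next to Gnb4, with lung 32.9 kb away.

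Some linked regions leaned to 1 organ. Among the 262 with at least 20 tags in every organ, the share of tags per kb that lay in heart was highest at Smim19 (51.2%, with 275, 40.3 and 116 tags in heart, kidney and liver), followed by Ccdc127 with Lrrc14b (50.8%), Slc25a26 with Lrig1 (49.2%) and Nfx1 (48.9%). Slc25a26 encodes the mitochondrial carrier of S-adenosylmethionine, and the linked region it shares with Lrig1 held 73.9, 36.7 and 84.8 tags, so that liver was highest by tags. Density was highest in heart in 72.7% of all the linked regions. The kidney share was highest at Sfxn5, a mitochondrial carrier of the sideroflexin family (45.4%, with 103, 313 and 25.2 tags), then at Ptprg (44.6%), Glg1 (43.7%) and Gm33195 (42.3%). The liver share was highest at chr1:105110492-105119533 over non-coding genes (51.9%, with 69.8, 197 and 433 tags), where the nearest lung region was 503 kb away. Smyd1, a muscle lysine methyltransferase gene, also leaned to liver by density (48.5%): chr6:71224947-71243350 held 384 tags in heart, 41.9 in kidney and 548 in liver.

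Lung signal was usually not far away. The nearest lung region lay at a median of 2541 bp, with quartiles of 914 and 8483 bp. It was within 500 bp for 16.0% of the linked regions (14.3% to 17.9%), within 1000 bp for 26.5% (24.4% to 28.7%) and within 5000 bp for 66.3% (63.9% to 68.5%). Only 106 linked regions (6.47%, 5.32% to 7.77%) had no lung region within 50 kb. The sets that lacked another organ stood farther from it: medians were 3252 bp where kidney was missing (1713 linked regions), 4949 bp where heart was missing (3006) and 9134 bp where liver was missing (4081). The lung list had the most regions and the liver list the fewest, and the part of list size in this order was not tested. With at least 20 tags in all 3 organs the median distance to lung rose to 4070 bp.

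**Figure D2:**
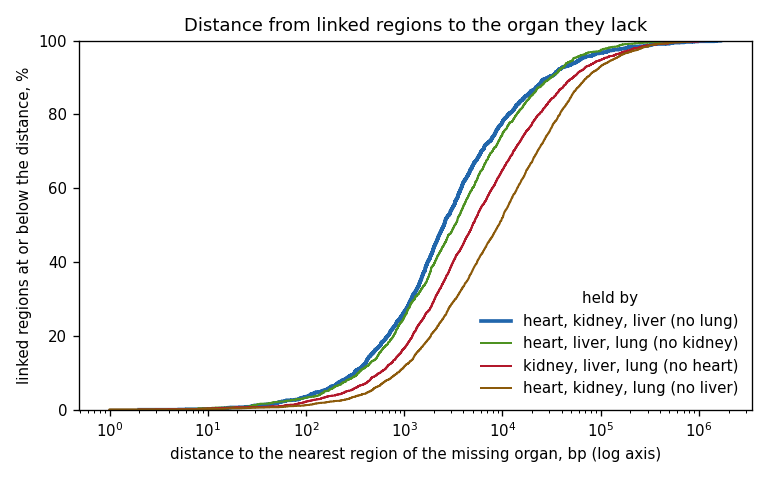
Cumulative percent of linked regions (vertical axis) against the distance in bp to the nearest region of the organ they lack (log axis), for the 4 sets held by exactly 3 organs. The curve for linked regions without lung lies to the left over most of its range, with a median of 2541 bp against 3252 to 9134 bp, and its upper tail reaches 1685 kb.

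Of the 4 linked regions farthest from lung signal, 1 on chromosome X is not reported here. At Nudt12, a gene for a peroxisomal hydrolase of NADH, 11.1 tags were held in heart, 14.2 in kidney and 143 in liver, at 1685 kb from a lung region. At Ndufaf4, which encodes an assembly factor of respiratory complex I, chr4:24896213-24900750 covered the start printed above and held 19.7, 65.7 and 70.3 tags, at 1445 kb from a lung region. At Ptbp2, a splicing regulator gene, the start held 12.7, 61.5 and 25.4 tags, at 978 kb. The heart value was the lowest of the 3 organs at each of these genes.

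Most of the linked regions lay inside genes and away from starts. A protein-coding gene span was overlapped by 80.6% of them (78.6% to 82.5%), compared with 73.5% (72.1% to 74.9%) of the set without liver, 77.5% (75.9% to 79.0%) of the set without heart and 74.0% (71.8% to 76.0%) of the set without kidney. The share was 87.0% (86.2% to 87.8%) where all 4 organs held the linked region and 66.8% over all linked regions under 10000 bp. The interval lay above those of the sets without liver and without kidney, narrowly overlapped that of the set without heart, and lay below that of the set held by all 4 organs. A further 194 (11.8%) overlapped a gene that is not protein-coding, in many cases inside a protein-coding one.

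A start of a protein-coding gene was within 1000 bp of 159 of the 1572 linked regions on chromosomes with listed starts, 10.1% (8.67% to 11.7%). The shares were 9.80% without liver, 13.6% (12.3% to 14.9%) without heart, 6.17% (5.06% to 7.44%) without kidney and 38.6% (37.4% to 39.7%) for all 4 organs. Along the gene, the midpoints were spread almost evenly, with 21.7%, 20.7%, 18.7%, 18.6% and 20.4% in 5 equal parts of the span from the start (1034 placements in genes). For linked regions held by all 4 organs the first of the 5 parts held 44.7%. It held 22.2% in the set without liver, 26.4% without heart and 20.6% without kidney. Those shared by all organs thus stood near starts more often. A spread along the gene body was common to the sets held by exactly 3 organs and not particular to those without lung. With at least 20 tags in all 3 organs, 17.6% (13.0% to 22.9%) were within 1000 bp of a start. These were longer, with a median of 5149 bp against 2429 bp for all that lacked lung and 5266 bp for those of all 4 organs, and the part of length in these shares was not tested.

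In total 1085 of 21631 protein-coding genes (5.02%) held such a linked region in the span or within 1000 bp. Of these, 864 held exactly 1 and 26 held 4 or more. Long genes held them more often: 1.19% of genes under 10 kb, 5.34% of those of 10 to 50 kb, 9.19% of those of 50 to 100 kb and 11.7% of those of 100 kb or more. The median span was 46.8 kb, against 17.3 kb over all genes.

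The rest of these genes was also less covered by lung. Outside the linked regions themselves, the median gene was covered by heart regions over 16.6%, by kidney over 21.5%, by liver over 23.1% and by lung over 11.4%. At least 50% of that remainder was covered by heart regions in 12.1% of the genes, by kidney in 19.3%, by liver in 24.1% and by lung in 4.88%, compared with 16.3%, 21.4%, 22.2% and 15.3% of all genes over their whole span. A gene covered throughout by lung cannot hold a linked region without lung, so the lung figure is partly set by the rule. Lung was the least covered organ in 382 of the 1085 genes (35.2%), so in most of them another organ was as low or lower. No lung region at all lay in the span or within 1000 bp of 131 genes (12.1%), a smaller share than the 37.3% of all genes without one. All genes were not required to hold a called region of any organ, and the 1085 were longer. These shares are therefore not on like terms.

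Among these 131 genes, Fgd4 had the highest level in its weakest organ. Its 2 linked regions were accompanied by coverage of 4.02% of the gene in heart, 11.1% in kidney and 24.6% in liver. Erbb4, which encodes a receptor for neuregulins, held 69.3 tags in heart, 103 in kidney and 64.1 in liver over its start, chr1:69103305-69108772, at 503 kb from lung signal. A second one, 132 kb downstream, held 17.2, 34.4 and 191. The start of Erbb4 was thus of like height in the 3 organs, while the second was mostly a liver signal.

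Kbtbd12, a kelch-domain gene, held 286 tags in heart, 41.6 in kidney and 202 in liver in chr6:88620696-88632911, over its start. Peg3 and Usp29, a neighbouring pair known to be expressed from the paternal allele, shared chr7:6727536-6730623 over both starts, with 67.3, 34.3 and 39.6 tags and lung 364 kb away. Only the kidney call reached into the Usp29 span, over 0.0275% of it. Heart had no called region in that span, and the liver region there lay outside the linked region. Prok1 and A630076J17Rik shared 1 with 71.9, 35.2 and 131 tags, and Isoc2a and Gm36210 shared 1 with 58.2, 75.4 and 88.2. Isoc2a had 1 lung region over 2.54% of its span, so only Gm36210 of that pair is a gene without lung. Heart covered 73.2% of Smyd1, kidney 4.21%, liver 37.9% and lung none. Of heart, kidney and liver, kidney was the lowest in 4 of these 5 sets of values.

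The genes with the most linked regions were long. Zbtb20, which encodes a zinc-finger repressor, held 15, the most of any gene, spread over 759 kb. Heart covered 47.5% of the gene, kidney 45.9%, liver 63.8% and lung 12.4%, and lung still had 88 regions there, so the 15 lay in gaps between lung regions, 205 bp to 13.7 kb from the nearest. Zfand3, another zinc-finger gene, held 7, with 42.6%, 51.0%, 72.4% and 28.1% covered, and 2 of the 7 were under 50 bp from a lung region. Ankrd28, an ankyrin-repeat subunit gene of protein phosphatase 6, held 6, with 32.0%, 22.8%, 14.9% and 5.59% covered. Rlf, a zinc-finger gene, held 5, among them 1 over its start with 32.4, 30.7 and 43.1 tags. A gene on chromosome 18 with 9 is not described here.

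Ppargc1a differed from those genes in that its linked regions stood far from lung signal. It held 6, all 34.3 to 72.2 kb from the nearest lung region. Of the 662 kb annotated span heart covered 18.2%, kidney 17.3%, liver 7.12% and lung 0.592%, from 37, 33, 21 and 2 called regions. The longest, chr5:51460102-51477666 near the far end of the gene, held 253 tags in heart, 260.0 in kidney and 17.7 in liver. A second, chr5:51588620-51597189, held 183, 132 and 24.4 and stood 25.2 kb upstream of the nearest listed start. Liver was the lowest organ in 5 of the 6 linked regions, and in the remaining 1 it was the highest, with 37.1 tags against 16.7 in heart and 16.0 in kidney.

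**Figure D3:**
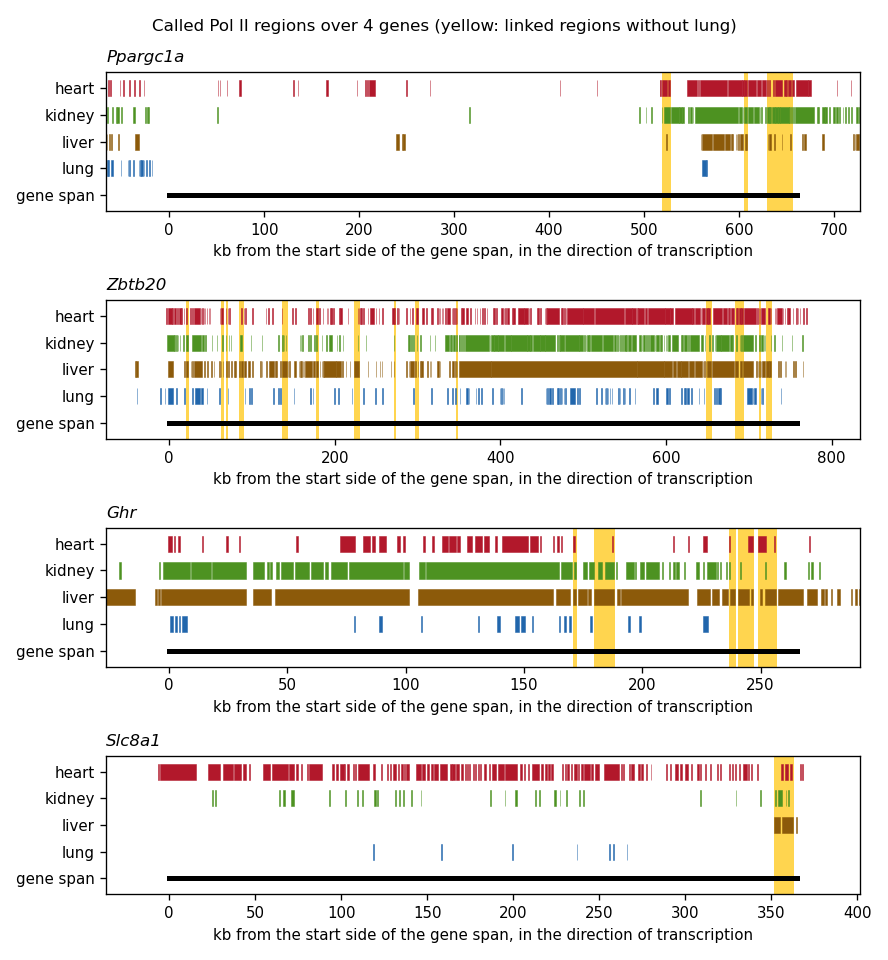
Called regions of heart, kidney, liver and lung (rows) along Ppargc1a, Zbtb20, Ghr and Slc8a1, in kb from the start side of the gene span in the direction of transcription; the black bar is the span and yellow columns are linked regions without lung. In Ppargc1a the 2 lung regions stand clear of the 6 yellow columns, whereas in Zbtb20 lung regions lie between the 15 columns.

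Genes for mitochondrial functions were placed in 5 lists, of fatty acid oxidation, pyruvate entry and the citric acid cycle, the respiratory chain, mitochondrial translation, import and dynamics, and regulators of mitochondrial and lipid metabolism. Of 198 distinct genes, 29 (14.6%) held a linked region without lung, beside 5.02% of all protein-coding genes. Their median span was 15.9 kb, against 17.3 kb over all genes, but only the respiratory chain list was below that level (6.87 kb). Medians were 26.0 kb for fatty acid oxidation and 20.7 kb for the citric acid cycle list. They were 20.9 kb for translation, import and dynamics and 41.2 kb for regulators. The part of gene length in the 14.6% was not tested. In the other sets held by exactly 3 organs the same genes stood nearer to or below the level of all genes: 15 of 198 (7.58%) without heart beside 8.31% of all genes, 10 (5.05%) without liver beside 8.97%, and 7 (3.54%) without kidney beside 4.39%. In the set held by all 4 organs, lung included, the same genes were again above all genes, with 74 of 198 (37.4%) beside 24.9%. Pooling these 5 lists was not planned in advance. The pool left out branched-chain amino acid breakdown (1 of 25 genes, 4%) and ketone body and acetate use (0 of 11). It took in the regulators, whose share was also high without heart (7 of 33) and without liver (6 of 33). No enrichment test was made, and the lists were drawn up with earlier results of these data known.

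The respiratory chain showed this most plainly. Of 69 subunit genes, 9 (13.0%) held a linked region without lung, and 1 (1.45%) held one in each of the sets without liver, without heart and without kidney. Cycs, the gene of cytochrome c, held 101 tags in heart, 99.5 in kidney and 55.8 in liver, 576 bp from a lung region. Close copies of Cycs exist in the genome, and the handling of tags with several matches was not given in the sources used here. Ndufa10, a complex I subunit gene, held 99.7, 35.9 and 29.9 over its start, 17.5 kb from lung. Ndufs4, another complex I subunit gene, held 29.9, 28.0 and 32.7 over its start, 24.7 kb from lung. Ndufa5 held 2, the stronger with 28.3, 19.3 and 21.7. The other 5 genes (Ndufb3, Ndufv2, Ndufs5, Atp5c1 and Ndufs1) held 1 each, with 8.44 to 17.2 tags in the weakest organ. Of the 9 genes, 7 encode subunits of complex I, as do 36 of the 69 listed, 1 a subunit of the ATP synthase and 1 the electron carrier cytochrome c.

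Fatty acid oxidation had 4 of 28 genes. Acads, a short-chain acyl-CoA dehydrogenase gene, held 27.3 tags in heart, 33.5 in kidney and 42.9 in liver, 502 bp from a lung region. This one, chr5:115106465-115109525, lay inside the neighbouring gene Rpl37rt and within 1000 bp of Acads, outside its span, and with gene spans alone the list had 3 genes. Etfa, which encodes the acceptor of their electrons, held 3, up to 28.8, 10.2 and 72.8 tags in the 3 organs. Acadl held 2 and Acad10 held 1, with at most 9.95 and 8.10 tags in the weakest organ. The citric acid cycle list had 3 of 32 genes, Sdha, Dlat and Sucla2, all weak: their weakest organs held 11.8, 10.2 and 6.98 tags.

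Translation, import and dynamics had 5 of 36 genes, and the set without heart also had 5 of 36. Mfn1 held 4, of which the strongest is described above. Dnm1l, which encodes the GTPase that divides mitochondria, held 23.8, 49.1 and 68.3 tags over its start, 16.7 kb from lung. Immt, a cristae organiser gene, held 21.8, 21.4 and 33.9, and Chchd3, a gene for its partner in the same complex, held 3 with at most 10.1 tags in the weakest organ. Another gene of the list is not reported here. Genes of both fusion and fission were thus represented.

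Regulators had 8 of 33 genes, the largest share of any list (24.2%). Beside Ppargc1a, Prkag2, a subunit gene of the energy sensor AMPK, held 76.4 tags in heart, 63.0 in kidney and 69.8 in liver. Prkaa2, the gene of a catalytic subunit of AMPK, held 3, the strongest with 22.8, 106 and 86.5. Polrmt, which encodes the mitochondrial RNA polymerase, held 60.2, 50.3 and 39.4 over its start, where a lung region was 642 bp away. The co-repressor gene Nrip1 and the genes Sirt1 and Med1 held weaker ones, with 7.23 to 10.1 tags in the weakest organ, and 1 gene on chromosome 18 is not described here. The same list held 7 of 33 in the set without heart and 6 of 33 in the set without liver, so its share was high in those sets too.

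Most of the linked regions in these lists were weak. With at least 20 tags in all 3 organs, 1 gene of fatty acid oxidation, none of the citric acid cycle list, 3 of the respiratory chain, 3 of translation, import and dynamics and 4 of the regulators still held one, beside 206 of all 21631 protein-coding genes (0.952%). The 1 of fatty acid oxidation was Acads, with its linked region in Rpl37rt. Outside the linked regions, heart covered a median of 35.6% of the span of the 29 genes, kidney 41.7%, liver 48.2% and lung 8.90%, and lung covered the least in 20 of them. Each of the 29 had a lung region in the span or within 1000 bp. Polymerase was thus called in lung at or beside these genes, and in most of them over less of the span. The lung figure is partly set by the rule, as for the 1085 genes. Lung also had the lowest median cover over all genes of each of the 5 lists. In the respiratory chain list it was 36.0%, beside 83.9% in heart, 92.2% in kidney and 87.3% in liver. Low lung cover was therefore not particular to the 29 genes.

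**Figure D4:**
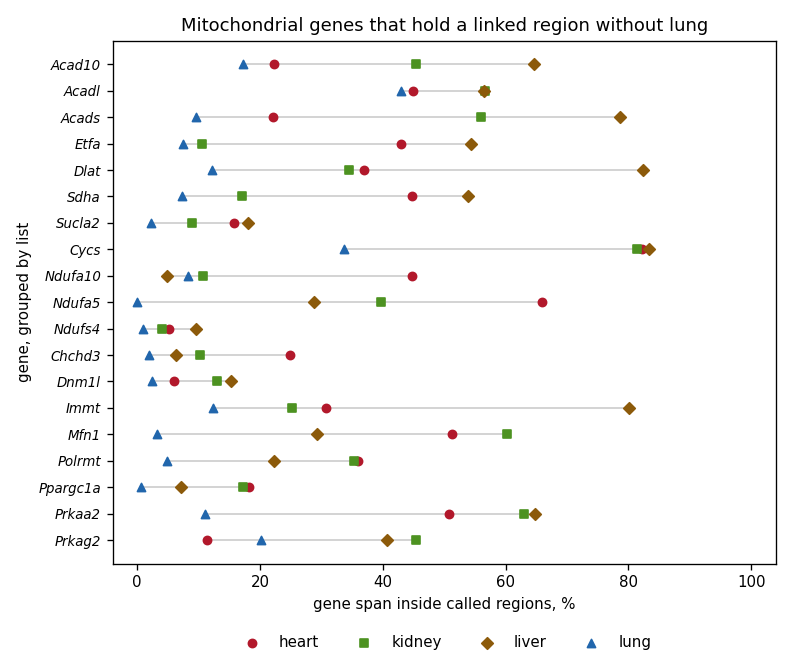
Percent of the gene span inside called regions (horizontal axis) in heart, kidney, liver and lung for 19 of the 29 mitochondrial genes that hold a linked region without lung, up to 4 per list by the tags of the weakest organ. Lung is the lowest of the 4 organs in 17 of the 19, and the exceptions are Ndufa10, where liver is lower, and Prkag2, where heart is lower. The shares include the linked regions, which the rule chose without lung; outside them lung covers least in 14 of the 19, and Cycs, Acadl and Polrmt join the exceptions.

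Outside the gene lists, further mitochondrial genes held linked regions over their starts. They were picked after their values were seen. Pmpcb, a subunit gene of the peptidase that trims imported mitochondrial proteins, held 24.3 tags in heart, 70.8 in kidney and 68.8 in liver, 30.3 kb from lung. Metap1d, a mitochondrial methionine aminopeptidase gene, held 27.3, 27.4 and 26.2, at 63.5 kb from lung. Mrpl21, a gene of the mitochondrial ribosome, held 45.6, 18.7 and 59.1, at 8.49 kb. Pmpcb, Metap1d and Mrpl21 had no lung region in the span or within 1000 bp. Mrps25, another gene of the mitochondrial ribosome, held 30.9, 34.3 and 34.9 tags over its start, but only 0.205 kb from lung.

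Of the other lists, insulin and forkhead signalling had 5 of 28 genes (17.9%), also found in the set without heart (5 of 28). Ghr, the growth hormone receptor gene, held 5, and heart covered 23.9% of the gene, kidney 70.4%, liver 89.9% and lung 7.11%. Its strongest in the weakest organ held 21.8, 19.9 and 28.4 tags, 1022 bp from a lung region. Grb10, an adaptor gene that restrains insulin signalling, held 27.3, 60.5 and 55.8, and Insr, the insulin receptor gene, held 2, with at most 8.44 in the weakest organ. Foxo4 and Mtor held 1 each, at 9.62 and 6.98. At 20 tags in all 3 organs 1 of the 5 genes was left.

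The clock list had 2 of 24 genes, Rora and Arntl. The stronger linked region of Rora, a nuclear receptor gene, held 20.7, 33.2 and 47.1 tags, and Arntl held 50.6, 9.34 and 6.98. Vitamin, heme and iron metabolism had 2 of 36, of which 1 is not reported here. Iscu, an iron-sulfur scaffold gene, held 11.6, 8.14 and 9.97 at only 2 bp from a lung region, the smallest distance of all. Branched-chain amino acid breakdown had 1 of 25 (Mccc1), with 9.64 tags in the weakest organ.

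Other lists of fuel use had no gene. None of 34 genes of peroxisomes, 31 targets of PPAR receptors and 11 genes of ketone use held a linked region without lung, beside 5.02% of all protein-coding genes. The PPAR list also had 0 of 31 in each of the other sets held by exactly 3 organs. Heart covered a median of 73.2% of a gene of the PPAR list, kidney 57.7%, liver 82.3% and lung 17.0%. The rule leaves out linked regions with a lung call or with a called region of 10000 bp or more.

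Of the lists of cell type markers, 4 had no gene: none of 30 cardiomyocyte, 36 hepatocyte, 35 lung epithelium and 30 endothelium markers held one, beside 5.02% of all protein-coding genes. The hepatocyte list also had 0 of 36 without liver and without kidney and 1 without heart, and the cardiomyocyte list had 1 of 30 in each of these 3 sets. Slc4a4, the sodium bicarbonate cotransporter gene, was the 1 of 30 proximal tubule markers and held 5. Over a start of Slc4a4 the tags were 21.2 in heart, 105 in kidney and 232 in liver, at 36.5 kb from lung. Leukocyte markers had 1 of 40 (Spi1, with 12.7, 9.95 and 16.7), mesenchyme 1 of 38 (Col15a1, a collagen gene, with 171, 25.3 and 214), motile cilia 2 of 25 (Ccno and Rfx2) and housekeeping genes 1 of 30 (Sdha). In lung the median endothelium marker was covered over 57.8% and in heart over 78.7%, against 8.26% in kidney and 2.86% in liver, and the part of cell makeup in the linked regions was not tested.

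**Figure D5:**
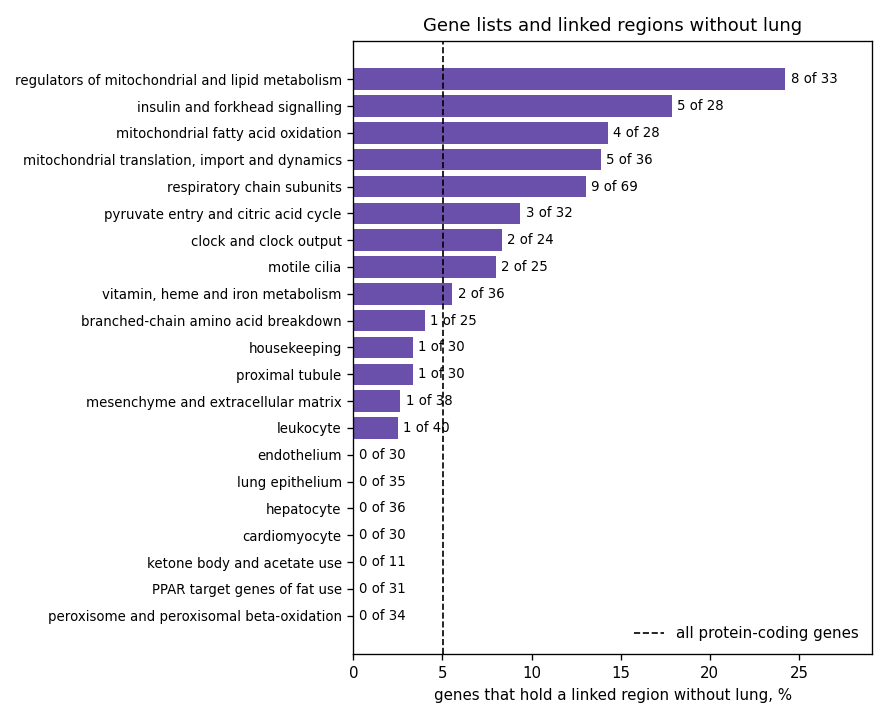
Percent of the genes of each of 21 lists (rows) that hold a linked region without lung, with the counts beside the bars; the dashed line is the 5.02% of all protein-coding genes. Regulators of mitochondrial and lipid metabolism lead with 8 of 33, and 7 lists have none.

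The linked regions overlapped 217 RefSeq promoter windows (250 bases before to 50 after a start) of 191 genes. Their median GC content was 58.7%, between the 53.0% of all 32619 windows and the 61.0% of windows overlapped by linked regions of all 4 organs. The GC box GGGCGG was in 53.5% of them (46.6% to 60.2%), beside 35.9% of all windows and 63.3% of those shared by 4 organs. The TATA letters were in 5.53% (2.89% to 9.46%), beside 13.7% and 5.83%. In both respects the windows were closer to those shared by 4 organs than to windows at large.

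The NRF1 letters, the first capitals in the Ndufaf4 stretch and a motif linked to nuclear genes of mitochondria among many others, were in 9 of the 217 windows, 4.15% (1.91% to 7.73%). They were in 0.978% of all windows and in 2.91% of those shared by 4 organs. The shares were 2.12% in the set without heart, 0.362% without liver and 0% without kidney. Besides Ndufaf4, windows of Acp1, Egf, Ercc6, Sh3yl1 and Zfp30 held them, and none of these genes is in the mitochondrial lists. The ETS letters CCGGAAGT were in 9.68% (6.09% to 14.4%), beside 3.91% and 10.3%, and the E-box CACGTG in 11.5% (7.60% to 16.5%), beside 7.2% and 10.4%. In the sets without heart, without liver and without kidney ETS was in 10.2%, 1.99% and 4.37%. The E-box was in 9.65%, 6.70% and 8.74% there. Windows of neighbouring starts share letters, so these counts are not independent. CCAAT (39.6%, beside 37.6%) and the forkhead letters TGTTTAC (3.23%, beside 3.67%) were at the level of all windows. TGANTCA (AP-1) was in 3.23%, beside 7.85%, and CAAAGTCCA (HNF4) in 0.922%, beside 0.478%.

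The estrogen-related receptor element TCAAGGTCA, the direct repeat 1 element (AGGTCA, any base, AGGTCA) and the PAR bZIP letters TTATGTAA were in none of the 217 windows, for which the interval reaches 1.69%. They were in 0.426%, 0.0399% and 0.944% of all windows. All motifs were searched on both strands, and no match says only that these letters are not in the window.

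The length limit removed 151 linked regions that otherwise met the rule, out of 1790. Just inside it were Sfxn5, whose longest called region was 9866 bp, with 103, 313 and 25.2 tags in heart, kidney and liver, and Pitpnc1 with 9827 bp and 339, 19.6 and 112 tags. Just outside were Mpp6 with 10119 bp and 20.7, 161 and 246 tags, and Cxcl12 with 10164 bp and 93.1, 59.6 and 411 tags.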

How the data were processed

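Regions were called by the authors from reads aligned with Bowtie2 2.2.8 and analysed with HOMER 4.8, genome build mm10, per the submitters' processing notes. Per the file headers, findPeaks was run in histone style with windows of 500 bp and a Poisson p threshold of 0.001, and no control library is named. The deposited signal of a region is its tag count scaled to 10000000 tags per library. The deposited score is the caller's score, the clonal fold change was deposited as a ratio, and region lengths in bp were deposited too. Without a control, differences in open chromatin or copy number stay in the tag counts. Tags rise with region length, so values per kb are given beside them.

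Regions were joined, and tags of an organ in a linked region were summed, with Python 3.11.15, numpy 2.4.6, pandas 2.3.3 and scipy 1.17.1. Joining and distances were tested on 200 simulated sets of lists and gave the known answer in 100% of checks. Gene spans and promoters are RefSeq's on GRCm38.p6, the assembly behind mm10. The promoter table has a start for 17274 of 21631 protein-coding genes and none on chromosome 18, where 67 linked regions lie.

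The linked regions and gene lists were chosen with earlier results of these data known. Named were the 12 linked regions with the highest weakest organ, the 4 with the largest share of tags per kb in each organ, the 6 genes with the most linked regions, the 10 strongest genes without a lung region, up to 4 genes of each list, the 3 nearest the length limit on either side and the 4 farthest from lung. Genes named outside this rule are said to be so or complete a count. Genes on chromosome 18 and some others are not reported here. Alternatives were another overlap, length limit, distance to lung, tag or score minimum, start window, gene span and the bases called in all 3 organs.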

Additional observations from a re-analysis of the deposited data

How the results depend on the processing

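No paired analysis was possible because each organ has 1 list. The number of linked regions stayed within 1.5 times of 1639 with a length limit of 5000 bp (1401), 20000 bp (1731) or none (1790), when lung regions within 500 or 1000 bp counted as held (1376 and 1204), and with at least 10 tags in every called region (1229). Joining at 50% of the shorter region also gave 1639, but only 1125 had the same ends. With the 50% of each list that scored highest, the number was 930. The share in gene spans was 74.9% for the bases called in all 3 organs. The share near a start was 12.4% within 2500 bp and 19.8% within 1000 bp of either gene end. The organ with the highest value changed with tags per kb to heart in 72.7%, kidney in 18.7% and liver in 8.66%. Without linked regions that had lung within 1000 bp, fatty acid oxidation fell to 2 genes and vitamin, heme and iron metabolism to 1. The HNF4 letters were in 0 windows that the bases called in all 3 organs overlapped. A minimum of 20 tags in all 3 organs, added after the data were seen, gave 75.6% in gene spans, 17.6% near starts and 206 genes. It left 1 gene of fatty acid oxidation, 3 of the respiratory chain, 3 of translation, import and dynamics, 4 regulators, 1 each of the insulin, clock and vitamin lists, and 0 of the citric acid cycle, branched-chain, leukocyte, cilia and housekeeping lists. Fewer linked regions enter under that minimum by construction. The cause of the other changes was not tested. Lung signal below the caller's threshold is not in the lists.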
